A study of Mus musculus with 5 samples.

Results

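The insulin-like growth factor (IGF) family was followed in the uterus of mice that had received seminal plasma (SP) from young or aged males. The 10 genes were those listed by name as its ligands (Igf1 and Igf2), receptors (Igf1r and Igf2r) and high-affinity binding proteins (Igfbp1 to Igfbp6), and all 10 were among the 28666 genes of the deposited count table. The rule names them by family and uses no threshold on a measured value. Each library came from the whole uterus of an ICR female of 6 to 8 weeks that had been caged with a vasectomized C57BL/6 male, so that the female received seminal fluid without sperm and the uterus held no embryo. The males were 12 to 14 weeks old in the young-SP group (n = 3, replicates 1, 2 and 4) and 12 to 18 months old in the aged-SP group (n = 2, replicates 1 and 4). The labels place collection 3.5 days after caging, whereas the study's methods place it at 3.0 days post coitum (dpc), before any embryo transfer. A female that received no seminal plasma was not analysed here, so each difference below is one between aged-SP and young-SP uteri.

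Insulin-like growth factors are secreted peptides that resemble insulin. Both activate the type 1 receptor, a tyrosine kinase encoded by Igf1r, whereas the mannose-6-phosphate receptor encoded by Igf2r mainly takes up IGF-II and delivers it to lysosomes. Binding proteins hold the peptides in the extracellular space, and proteases that cut the binding proteins release them. In the rodent uterus Igf1 is made in large part by the stroma and is known as a mediator of estrogen-driven epithelial growth, and binding proteins and IGF-II are known for their part in decidualization and placental growth.

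Between 15071914 and 16728601 reads were counted per library, and 17013 genes were expressed highly enough to be tested. Levels are given as CPM, the reads of a gene per 1000000 counted reads after TMM scaling. EdgeR's quasi-likelihood test served for the comparison, and its p-values were adjusted over the 17013 genes by the method of Benjamini and Hochberg. A gene was called at an adjusted p under 0.05 together with an absolute log2 fold change over 1, the limits that the study's methods state. In a principal component analysis of the 500 most variable genes, replicate 1 of the young-SP group (9.43 on the first component, which held 66.2% of the variance) lay between the aged-SP libraries (43.7 and 25.5) and the other young-SP libraries (-41.9 and -36.6). Values without this library are therefore given beside the counts of members and pathway genes, and beside Igf1, Igf1r, Igf2r, Igfbp3 and Igfbp4. The labels do not say whether replicates came from separate cages or males, so that p-values measure the spread between these libraries only.

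Of the 10 genes, 8 were tested, since Igf2 and Igfbp1 had too few reads in both groups. The number called by edgeR was 0, as it was by DESeq2 and by limma-voom, against 0.147% of all tested genes by edgeR and 3.6% by DESeq2. The share of all tested genes that limma-voom called is not given, so its 0 is not a result about the members. The 4 members with an unadjusted p under 0.05 were split into 2 with a higher level after aged SP (Igf1r and Igf2r) and 2 with a lower one (Igf1 and Igfbp4), where 19.0% of all tested genes reached this limit. The same 4 of 8 were the ones whose groups did not overlap, against 38.8% of all tested genes. The median log2 fold change of the 8 was 0.02, beside 0.0072 for all tested genes, and 4 members had a positive and 4 a negative value. All 8 had reads in every library of both groups. At an adjusted p under 0.05 without a limit on the fold change, edgeR gave 0 members (0.153% of all tested genes) and DESeq2 gave 3, namely Igf1, Igf1r and Igfbp4 (7.58% of the genes that DESeq2 could adjust). Without replicate 1 of the young-SP group, edgeR gave 1 member, Igf1r (4.81% of tested genes), and DESeq2 gave 3 (9.74%), of which Igf1 was called (5.84%). EdgeR without a filter on low counts gave 1, Igf1r (1.0%).

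**Figure D1:**
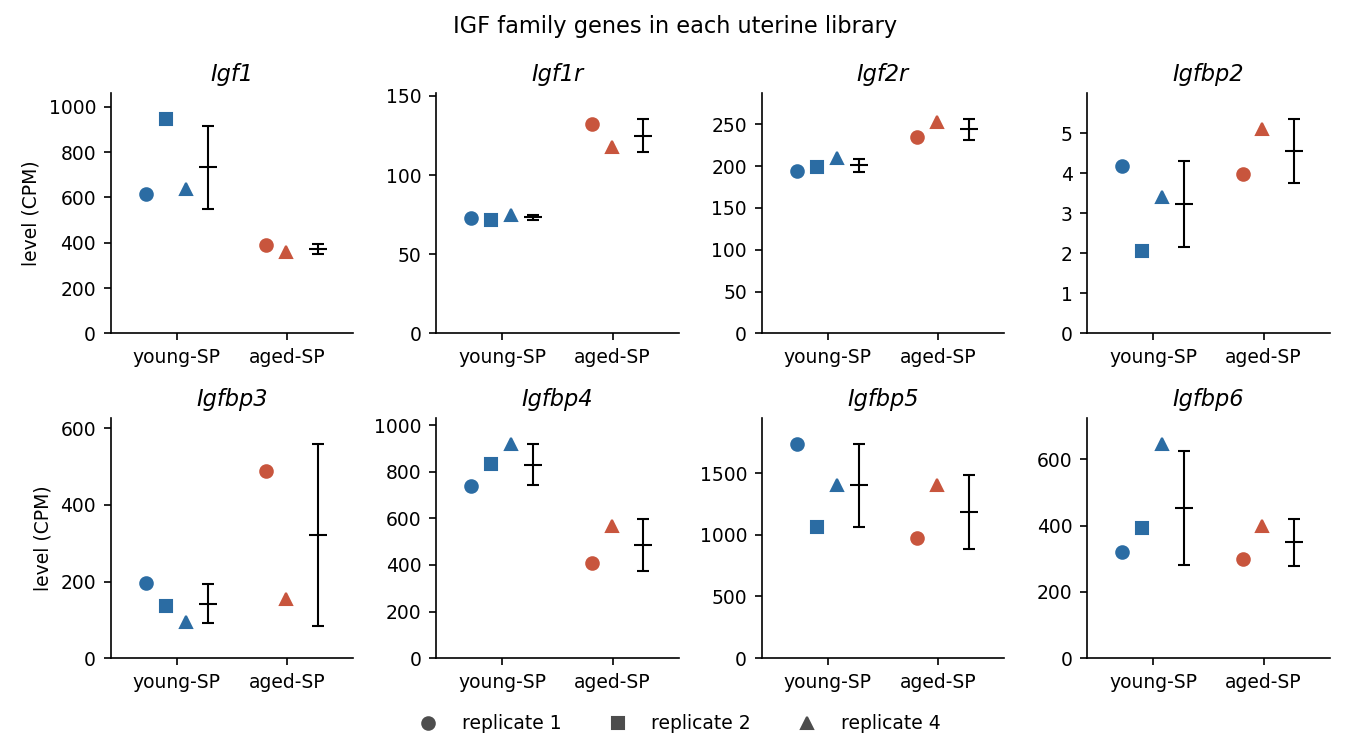
Level of the 8 tested genes in every library in CPM, each panel with its own axis from 0; points are libraries, with the shape giving the replicate number, and the bars give the mean and SD of 3 young-SP and 2 aged-SP libraries. The groups do not overlap for Igf1, Igf1r, Igf2r and Igfbp4, and replicate 1 of the aged-SP group lies far above the other libraries for Igfbp3.

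Igf1 encodes the ligand with the strongest action on the type 1 receptor. Its gene (ENSMUSG00000020053) spans chr10:87858265-87937042 on the + strand of GRCm38. Igf1 was measured at 389 and 357 CPM in replicates 1 and 4 of the aged-SP group, and at 614, 945 and 637 CPM in replicates 1, 2 and 4 of the young-SP group. Both aged-SP libraries were below the lowest young-SP library, and replicate 2 was the highest of the young-SP group. Mean levels of 373 ± 22.7 CPM (SD, n = 2) against 732 ± 185 CPM (SD, n = 3) gave a log2 fold change of -0.97 (SE 0.22, 95% interval -1.52 to -0.43) and a level 1.96-fold higher in the young-SP group. Igf1 did not pass edgeR's quasi-likelihood test (unadjusted p = 0.0052, Benjamini-Hochberg adjusted p = 0.117). With DESeq2 the adjusted p was 0.000997 at a log2 fold change of -0.98, just short of the limit on the fold change. Without replicate 1 of the young-SP group, DESeq2 gave -1.09 (adjusted p = 2.08e-05), which passed both limits, whereas edgeR gave -1.10 (adjusted p = 0.0551). Over all alternatives the adjusted p of Igf1 lay between 2.08e-05 and 0.340, the highest without replicate 1 of the aged-SP group, and its log2 fold change was negative in each of them.

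In whole tissue, fewer cells that express a gene and less of its RNA per cell cannot be told apart. Of 10 markers of endometrial stroma and fibroblasts, 9 had a negative log2 fold change and 5 had groups that did not overlap, all lower after aged SP, where 19.3% of all tested genes were lower without overlap. Their summed level was 10775 to 12122 CPM in the aged-SP group and 15095 to 19471 CPM in the young-SP group. Col3a1, a fibrillar collagen and the most abundant of them, was at 4336 and 4193 CPM in the aged-SP libraries and at 6540, 8554 and 8168 CPM in the young-SP libraries. The sum rested largely on Col3a1 and the collagen gene Col1a1 (2412 and 2869 against 4382, 5193 and 5232 CPM). Groups overlapped for Dcn, the next most abundant (1867 and 2391 against 1668, 1862 and 2537 CPM), and for Vim, Lum, Nr2f2 and Hoxa10. The part of the stroma in the level of Igf1 was not tested.

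Igf2 encodes the growth factor of fetal and placental tissue, which is expressed from the paternal allele. As counted, it was close to the limit of detection, with 4 and 3 reads in the aged-SP libraries and 2, 6 and 3 reads in the young-SP libraries. A count of 3 corresponds to 0.177 to 0.200 CPM in these libraries, so that no fold change is given. Igf2 lies at chr7:142650766-142666816 on the - strand (ENSMUSG00000048583) and shares exon sequence with the gene model Gm49394 on the same strand, so reads from the shared exons cannot be told apart. H19, the maternally expressed non-coding RNA of the same imprinted domain, was at 13.1 and 14.6 CPM in the aged-SP group and at 10.01, 25.4 and 13.6 CPM in the young-SP group, with overlapping groups.

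Igf1r had the smallest p of the family. The gene (ENSMUSG00000005533) lies at chr7:67952827-68233668 on the + strand. Igf1r was at 132 and 117 CPM in replicates 1 and 4 of the aged-SP group, and at 72.7, 71.9 and 75.0 CPM in replicates 1, 2 and 4 of the young-SP group. Both aged-SP libraries were higher than all 3 young-SP libraries, which were nearly equal. The means were 125 ± 10.4 CPM (SD, n = 2) against 73.2 ± 1.59 CPM (SD, n = 3), a 1.71-fold difference (log2 fold change 0.77, SE 0.09, 95% interval 0.54 to 0.999). By edgeR's quasi-likelihood test the unadjusted p was 0.000233 and the Benjamini-Hochberg adjusted p was 0.0650, so that Igf1r did not pass. DESeq2 gave an adjusted p of 4.68e-07, edgeR without a filter on low counts gave 0.0302 and edgeR without replicate 1 of the young-SP group gave 0.0344 (log2 fold change 0.75). Across all alternatives the adjusted p was between 4.68e-07 and 0.240, and the log2 fold change between 0.68 and 0.85, under the limit of 1 throughout. Its lowest count was 1123 reads, for which counting alone gives an error of 2.98%.

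Igf2r, the receptor for mannose-6-phosphate and IGF-II, differed less. Its level was 235 and 253 CPM in the aged-SP libraries and 194, 199.5 and 209 CPM in the young-SP libraries. Again both aged-SP libraries were above all young-SP libraries, by a small margin. The log2 fold change was 0.28 (SE 0.09, 95% interval 0.06 to 0.50), with an unadjusted p of 0.0219 and an adjusted p of 0.194 by edgeR's quasi-likelihood test, and of 0.124 by DESeq2. Without replicate 1 of the young-SP group, edgeR gave 0.24 with an interval that held 0 (-0.02 to 0.51, unadjusted p = 0.0656, adjusted p = 0.254). Igf2r (ENSMUSG00000023830, chr17:12682406-12769664, - strand) overlaps Airn, a non-coding RNA transcribed from the opposite strand that is known to silence the paternal Igf2r allele. Airn was at 24.2 and 23.9 CPM in the aged-SP group and at 18.5, 19.2 and 20.2 CPM in the young-SP group. Its log2 fold change of 0.32 (adjusted p = 0.229 by edgeR) was close to that of Igf2r. The library kit was taken as one that does not mark the strand, and the annotated exons of the 2 genes share no base. Reads of Airn that fall in Igf2r exons cannot be told apart from those of Igf2r. Likewise, reads of unspliced Igf2r RNA that fall in Airn exons cannot be told apart from those of Airn. The values of Airn may therefore hold reads of Igf2r, which was not tested.

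**Figure D2:**
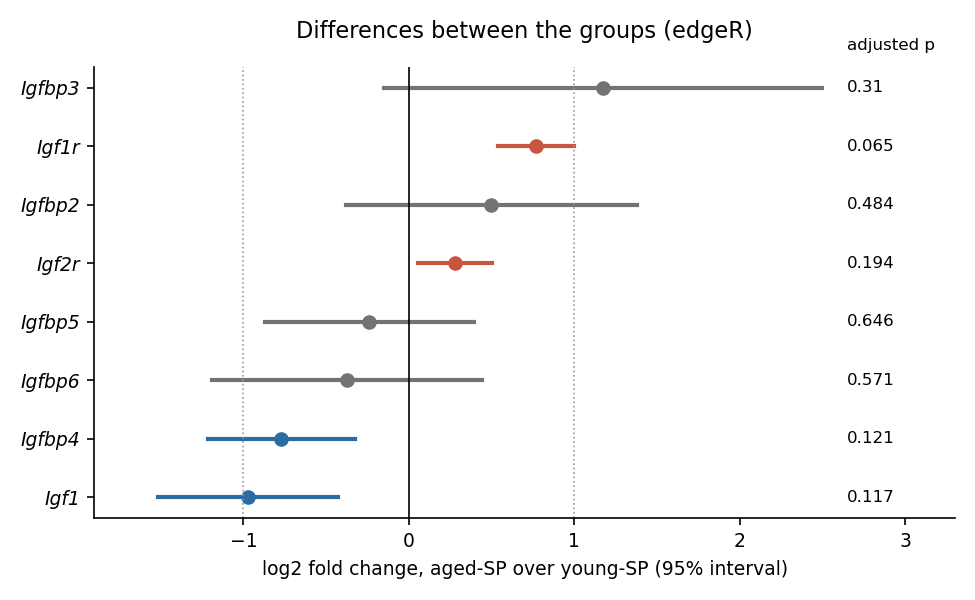
Log2 fold change of the aged-SP over the young-SP group for the 8 tested genes with 95% intervals from edgeR, and the adjusted p beside each; colours mark an unadjusted p under 0.05 (red, positive, and blue, negative), and dotted lines mark the limit of 1 in either direction. Igf1r and Igf2r lie above 0 with intervals of 0.54 to 0.999 and 0.06 to 0.50, and Igf1 and Igfbp4 lie below 0.

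The promoters of the members with non-overlapping groups are shown as far as their window held no annotated exon, which leaves out Igf1. They are the 250 bases before the RefSeq transcription start in build GRCm38.p6, with capitals for the motifs found by letter. The motifs searched on both strands were the TATA box (TATAAA), the GC box (GGGCGG), the CCAAT box (CCAAT), the estrogen response element (GGTCANNNTGACC) and its half-site (AGGTCA), the progesterone and glucocorticoid receptor half-site (AGAACA) and the AP-1 site (TGANTCA). The half-site AGGTCA can overlap the full estrogen response element. Igf1r is at chr7:67952007-67952256 (+ strand), Igf2r at chr17:12769707-12769956 (- strand) and Igfbp4 at chr11:99040994-99041243 (+ strand).
Igf1r: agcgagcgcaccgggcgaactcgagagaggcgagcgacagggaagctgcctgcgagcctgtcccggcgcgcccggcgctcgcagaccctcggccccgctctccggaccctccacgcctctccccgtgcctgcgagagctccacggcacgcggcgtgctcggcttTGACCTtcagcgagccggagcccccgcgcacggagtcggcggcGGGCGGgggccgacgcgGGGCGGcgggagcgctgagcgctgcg
Igf2r: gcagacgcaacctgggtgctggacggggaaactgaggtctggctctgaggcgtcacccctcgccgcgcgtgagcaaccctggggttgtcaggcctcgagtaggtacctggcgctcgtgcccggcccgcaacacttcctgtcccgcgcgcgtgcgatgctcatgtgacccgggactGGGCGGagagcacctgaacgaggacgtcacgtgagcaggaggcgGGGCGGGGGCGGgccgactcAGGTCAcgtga
Igfbp4: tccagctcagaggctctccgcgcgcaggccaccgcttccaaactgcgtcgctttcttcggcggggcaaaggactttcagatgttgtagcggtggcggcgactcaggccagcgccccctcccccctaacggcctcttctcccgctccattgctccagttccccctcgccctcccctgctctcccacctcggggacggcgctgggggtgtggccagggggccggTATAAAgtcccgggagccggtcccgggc

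The capitals mark 2 GC boxes and 1 half-site AGGTCA in Igf1r (on the reverse strand, printed as TGACCT), 3 GC boxes and 1 such half-site in Igf2r, and 1 TATA box in Igfbp4, 22 bases before the start. Both receptor promoters thus held GC boxes and no TATA box, and Igfbp4 the reverse. Of 32851 RefSeq promoters of the same length, 32.7% held a GC box, 14.02% the half-site AGGTCA, 12.4% a TATA box, 33.8% a CCAAT box, 16.1% the half-site AGAACA, 6.75% an AP-1 site and 0.0639% the full estrogen response element. The share of G and C was 77.6% in Igf1r and 69.2% in both others, against a median of 52.4% over all promoters. The RefSeq starts of Igf1r and Igf2r lie outside the gene spans given above, which are those of the deposited table. These matches are a description of letters and not of binding.

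Among the binding proteins, Igfbp4 was the one whose groups did not overlap. IGFBP-4 is known as an inhibitor of IGF action that is cut by the protease PAPP-A. Igfbp4 (ENSMUSG00000017493, chr11:99041244-99054392, + strand) was at 409 and 565 CPM in replicates 1 and 4 of the aged-SP group and at 740, 835 and 917 CPM in replicates 1, 2 and 4 of the young-SP group. Both aged-SP libraries were lower than all young-SP libraries, and they differed from each other more than neighbouring young-SP libraries did. The log2 fold change was -0.77 (SE 0.18, 95% interval -1.21 to -0.33), with group means of 487 ± 111 CPM (SD, n = 2) and 830 ± 88.6 CPM (SD, n = 3). The adjusted p was 0.121 by edgeR's quasi-likelihood test (unadjusted p = 0.00588) and 0.00287 by DESeq2, with a range of 0.000461 to 0.333 over all alternatives. Without replicate 1 of the young-SP group edgeR gave -0.86 (adjusted p = 0.0697).

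Igfbp3 encodes the main carrier of IGFs in serum. Igfbp3 (ENSMUSG00000020427, chr11:7206086-7213923, - strand) was at 489 CPM in replicate 1 and 153 CPM in replicate 4 of the aged-SP group, and at 197, 136 and 94.5 CPM in the young-SP group. One aged-SP library was far above all others and the other lay within the young-SP range. The log2 fold change of 1.17 (95% interval -0.15 to 2.50, adjusted p = 0.310 by edgeR) was the largest of the 8 tested genes and rested on that library. It was 0.10 without replicate 1 and 1.78 without replicate 4 of the aged-SP group. Without replicate 1 of the young-SP group it was 1.47 (95% interval 0.05 to 2.89, adjusted p = 0.210 by edgeR).

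Igfbp5, known as a binding protein of matrix and smooth muscle, was the member with the most reads. Its level was 976 and 1400 CPM in the aged-SP group and 1734, 1065 and 1407 CPM in the young-SP group (ENSMUSG00000026185, chr1:72857932-72874884, - strand). The groups overlapped, with a log2 fold change of -0.24 (95% interval -0.87 to 0.39, adjusted p = 0.646 by edgeR) that was -0.0034 without replicate 1 of the aged-SP group. Igfbp6 (ENSMUSG00000023046, chr15:102144362-102149511, + strand), whose protein prefers IGF-II over IGF-I, was at 300 and 399 CPM in the aged-SP group and at 319, 393 and 646 CPM in the young-SP group. Here too the groups overlapped, and replicate 4 of the young-SP group stood above the rest. The log2 fold change was -0.37 (95% interval -1.19 to 0.44, adjusted p = 0.571 by edgeR), and -0.04 without that library.

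Igfbp2, which is expressed widely in fetal tissue, had 35 to 80 reads per library, for which counting alone gives an error of up to 16.9%. It was at 3.99 and 5.12 CPM in the aged-SP group and at 4.19, 2.07 and 3.40 CPM in the young-SP group, with overlapping groups and a log2 fold change of 0.50 (95% interval -0.38 to 1.38, adjusted p = 0.484 by edgeR). Igfbp1, a marker of decidual cells in primates, had 0 reads in both aged-SP libraries and 0, 1 and 0 reads in the young-SP libraries, and a count of 0 allows up to 0.200 CPM.

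Of the binding protein genes, 4 lie in pairs with opposite orientation. On chromosome 1, Igfbp2 (72824503 to 72852474, + strand) is followed by Igfbp5 on the other strand, with 5457 bases between them. On chromosome 11, Igfbp1 (ENSMUSG00000020429, 7197782 to 7202546, + strand) is followed by Igfbp3 with 3539 bases between. Levels within a pair were far apart, as Igfbp5 had 75.2 to 158 times the level of Igfbp2 (ENSMUSG00000039323) per kilobase in each library.

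To compare levels between genes, CPM were divided by the length of the merged exons in kilobases, the length that the deposited FPKM values use. Over the 5 libraries the mean level was 370 ± 124 CPM per kilobase for Igfbp6, 219 ± 50.6 for Igfbp5, 157 ± 46.6 for Igfbp4, 68.4 ± 50.6 for Igfbp3 and 59.4 ± 23.9 for Igf1 (SD, n = 5). These neighbours in the order overlapped over the libraries. Below them came Igf2r at 23.1 ± 2.64, Igf1r at 5.59 ± 1.71 and Igfbp2 at 2.03 ± 0.609 CPM per kilobase (SD, n = 5), and from Igf1 down to Igf2 each gene was apart from the next in all 5 libraries. Igfbp6, Igfbp5 and Igfbp4 thus had the highest means of the family, Igfbp2 and Igfbp1 were near its lower end, and the type 1 receptor was below its ligand Igf1. The order of Igfbp3 and Igf1 was the reverse without replicate 1 of the aged-SP group.

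**Figure D3:**
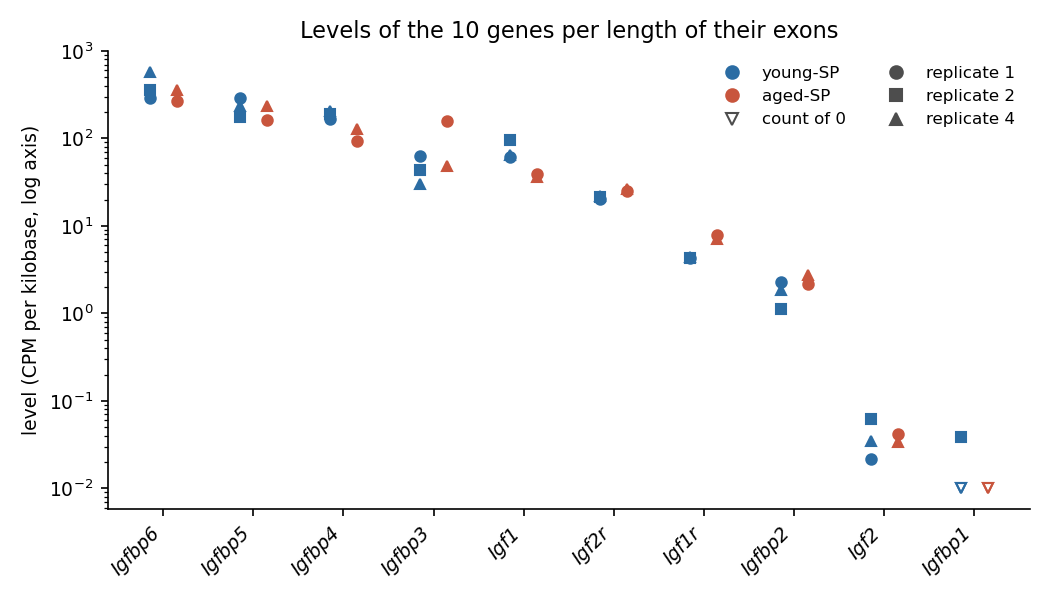
Level of the 10 genes in each library, in CPM per kilobase of merged exons on a log axis, ordered by the mean over the 5 libraries; colours mark the groups, shapes the replicates and open triangles a count of 0. Levels run from 370 CPM per kilobase for Igfbp6 to near the limit of detection for Igfbp1 and for Igf2 as counted.

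The summed level of the 6 binding protein genes was 683 and 772 CPM per kilobase in the aged-SP libraries and 808, 764 and 1055 in the young-SP libraries, so that the groups overlapped. That of the ligands, nearly all Igf1 as counted, was 39.3 and 36.1 CPM per kilobase in the aged-SP group and 62.1, 95.5 and 64.4 in the young-SP group, without overlap. Binding protein transcripts exceeded those of the ligands 17.4 and 21.4 times in the aged-SP libraries and 13.0, 8.00 and 16.4 times in the young-SP libraries. The aged-SP libraries had the higher ratios, the lower of them only just above the highest young-SP library.

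The ratio of Igf1 to Igf1r per kilobase was 4.99 and 5.15 in the aged-SP libraries and 14.3, 22.3 and 14.4 in the young-SP libraries. These ratios were chosen after the values of both genes were seen and were not tested. The ratio of Igf2r to Igf1r was 3.16 and 3.82 in the aged-SP group and 4.74, 4.94 and 4.96 in the young-SP group, so that both receptors were higher in the aged-SP group but not by the same factor.

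Within the binding proteins, Igfbp6 made up 39.5% and 46.5% of the summed level per kilobase in the aged-SP libraries and 35.5%, 46.2% and 55.1% in the young-SP libraries. Igfbp4 made up 13.5% and 16.6% against 20.7%, 24.7% and 19.7%, so that the shares of the groups did not overlap. The share of Igfbp3 was 22.9% in replicate 1 of the aged-SP group and between 2.86% and 7.78% in all other libraries.

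**Figure D4:**
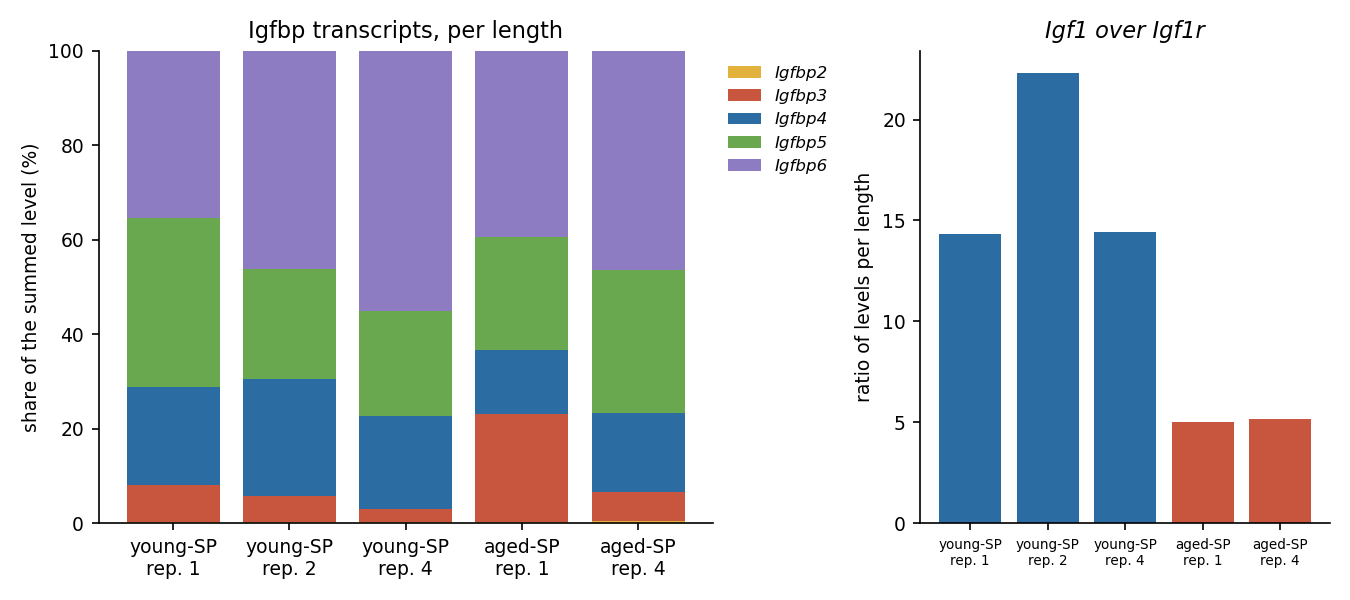
Left, share of each binding protein gene in their summed level per kilobase, one bar per library, in percent; right, ratio of Igf1 to Igf1r, both in CPM per kilobase, one bar per library (blue, young-SP, and red, aged-SP). The ratio is 4.99 and 5.15 in the aged-SP libraries and at least 14.3 in the young-SP libraries.

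Igf1r, as the member with the smallest p, was compared with the 13433 other genes that had a mean of at least 50 counts and a symbol. The genes whose log2 CPM, centred over the 5 libraries, differed least from that of Igf1r included Mylip (root mean square difference 0.0224), Tgfb3 (0.0253), C030015A19Rik (0.0287) and 4921507P07Rik (0.0314). Mylip, a ubiquitin ligase of the low-density lipoprotein receptor, was at 79.4 and 73.4 CPM in the aged-SP libraries and at 45.4, 43.7 and 45.9 CPM in the young-SP libraries. Tgfb3, a transforming growth factor, was at 36.2 and 32.0 against 19.8, 20.2 and 19.9 CPM. Both had nearly equal levels in the 3 young-SP libraries and replicate 1 as the higher of the aged-SP libraries, as Igf1r did. They were picked for their likeness to Igf1r, so that this shared pattern follows from the choice. With 5 libraries in 2 groups, such likeness is a description only.

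Beyond the 10 genes, 80 genes of the IGF pathway were listed, of which 77 were in the table and 69 were tested. EdgeR called 0 of them, and DESeq2 called Htra3 and Irs2 as higher and Ctsd and Rln1 as lower after aged SP, 4 of the 70 pathway genes that DESeq2 could adjust, against 3.6% of all genes. With an unadjusted p under 0.05 by edgeR, 13 were higher and 5 lower, where 9.62% of all tested genes were higher and 9.36% lower. Groups did not overlap for 20 higher and 13 lower genes, where the shares over all tested genes were 19.5% and 19.3%. The median log2 fold change was 0.05.

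**Figure D5:**
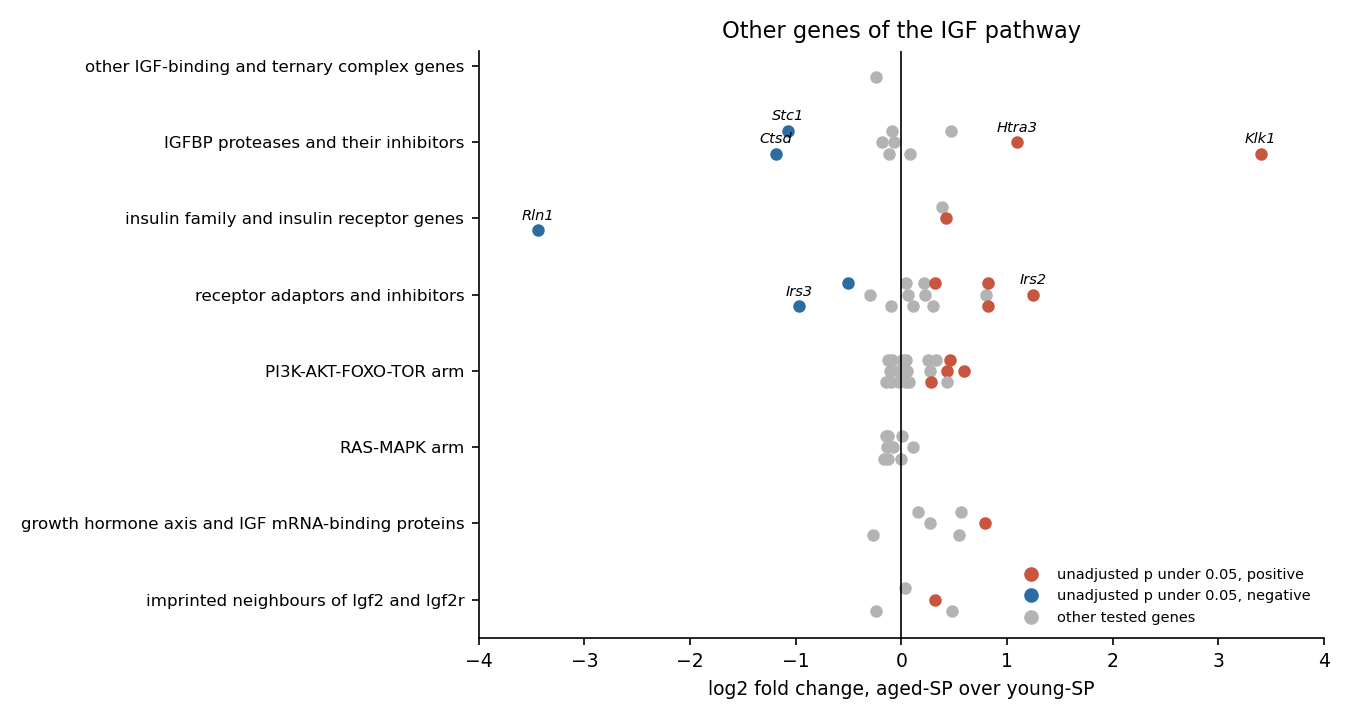
Log2 fold change of the aged-SP over the young-SP group for the 69 tested genes of the IGF pathway, one row of points per list; colours mark an unadjusted p under 0.05 and grey the other tested genes. Positive points with an unadjusted p under 0.05 number 13 and negative ones 5, and the RAS-MAPK row holds grey points only.

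Genes for proteases of the binding proteins and their inhibitors had values in both directions. Ctsd, the lysosomal protease cathepsin D, was at 418 and 438 CPM in the aged-SP libraries and at 889, 860 and 1181 CPM in the young-SP libraries. Both aged-SP libraries were well below the others, with a log2 fold change of -1.19 (adjusted p = 0.0734 by edgeR and 1.02e-07 by DESeq2). Htra3, a serine protease of the decidualizing uterus, was at 271 and 381 CPM against 160, 99.8 and 199 CPM, higher in both aged-SP libraries (log2 fold change 1.09, adjusted p = 0.163 by edgeR and 0.0137 by DESeq2).

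Klk1, the tissue kallikrein, was at 95.7 CPM in replicate 1 of the aged-SP group, the same library that was high for Igfbp3, at 9.27 CPM in replicate 4 and at 8.01, 2.36 and 4.54 CPM in the young-SP group.

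Of the insulin family, Insr, whose product forms hybrid receptors with the type 1 receptor, was at 112 and 117 CPM in the aged-SP group and at 81.3, 83.9 and 91.1 CPM in the young-SP group. Like Igf1r it was higher in both aged-SP libraries, with a log2 fold change of 0.42 (adjusted p = 0.111 by edgeR and 0.0173 by DESeq2). Rln1, relaxin, was at 0 and 0.256 CPM against 0.688, 1.24 and 2.40 CPM. A count of 3 is 0.177 to 0.200 CPM, so its call by DESeq2 (adjusted p = 0.0448, and 0.188 by edgeR) rested on few reads. Insl3 was under 1 CPM in each library.

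Irs2, an adaptor that links the insulin receptor and the type 1 IGF receptor to PI3K, was at 31.4 and 20.5 CPM in the aged-SP libraries and at 9.70, 11.2 and 11.7 CPM in the young-SP libraries. Both aged-SP libraries were higher, with a log2 fold change of 1.25 (adjusted p = 0.0848 by edgeR and 0.000270 by DESeq2). Grb10, an imprinted adaptor that inhibits the receptors, was at 210 and 227 CPM against 299, 353 and 279 CPM (log2 fold change -0.51, adjusted p = 0.144 by edgeR and 0.0176 by DESeq2). Socs2, which damps growth hormone signalling, was at 113 and 71.7 CPM against 54.9, 55.3 and 46.1 CPM (log2 fold change 0.83, adjusted p = 0.139 by edgeR and 0.0158 by DESeq2). Groups did not overlap for any of these 3 adaptors and inhibitors, which were named for the smallest p of their list. Over the 15 tested genes of that list, groups did not overlap for 6 higher and 2 lower genes. The shares over all tested genes were 19.5% and 19.3%. A positive log2 fold change was found for 11 of the 15, and for 8663 of all 17013 tested genes.

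In the PI3K-AKT arm, 4 of 21 genes had an unadjusted p under 0.05 by edgeR, and each of the 4 had a higher level in the aged-SP group. Of all tested genes, 19.0% reached this limit in either direction and 9.62% with a higher level in the aged-SP group. The forkhead factors Foxo3 (126 and 150 CPM against 103, 99.6 and 97.2 CPM) and Foxo4 (68.4 and 73.0 CPM against 51.4, 48.0 and 57.5 CPM), which AKT inactivates, had log2 fold changes of 0.46 and 0.43. Their adjusted p were 0.118 and 0.135 by edgeR, and 0.0154 and 0.0619 by DESeq2. Both were named for a small p, and their groups did not overlap. Groups did not overlap for 6 higher and 3 lower genes of the 21, where the shares over all tested genes were 19.5% and 19.3%.

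In the RAS-MAPK arm the number with an unadjusted p under 0.05 by edgeR was 0 of 9, although 7 had a negative log2 fold change. The groups of 4 did not overlap, all lower after aged SP, where 19.3% of all tested genes were lower without overlap. The differences were small, as for the kinases Mapk3 (139 and 164 CPM against 167, 164 and 179 CPM, log2 fold change -0.17) and Map2k2 (-0.15). Of the growth hormone axis and the proteins that bind IGF mRNAs, Jak2 had a log2 fold change of -0.27, Stat5a of 0.56 and Igf2bp2 of 0.80, with adjusted p of 0.282, 0.317 and 0.231 by edgeR. Igf2bp2 was at 42.3 and 32.7 CPM against 28.7, 14.96 and 21.1 CPM. Igfbp7, a low-affinity relative of the binding proteins, was at 714 and 519 CPM against 611, 741 and 826 CPM, with overlapping groups. Igfals, the third partner of the serum complex of IGF and IGFBP-3, was listed at 0.0605 to 0.512 CPM and was not tested. Mas1, a neighbour of Igf2r, was near 1 CPM or below in each library.

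Marker genes of hormone response and cell types differed between the libraries too. EdgeR called 0 of them, against 0.147% of all tested genes, whereas DESeq2 called 7. These were 5 of 10 progesterone-responsive, 1 of 8 estrogen-responsive and 1 of 9 epithelial genes that DESeq2 could adjust, against 3.6% of all such genes. Of 10 progesterone-responsive genes 9 had a negative log2 fold change, with a summed level of 495 to 686 CPM in the aged-SP group and 896 to 1497 CPM in the young-SP group. Those called by DESeq2 were Areg, Calca, Ihh, Ptch1 and Lrp2, and the most abundant, Hsd11b2, was at 175 and 235 CPM against 272, 288 and 267 CPM. The estrogen-responsive genes summed to 10211 and 9411 CPM in the aged-SP group and to 8253, 1048 and 1750 CPM in the young-SP group, so that replicate 1 of the young-SP group was close to the aged-SP libraries. Greb1 was the one that DESeq2 called (40.9 and 60.2 CPM against 17.5, 14.8 and 10.6 CPM), and Ltf the most abundant.

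Epithelial markers summed to 4098 to 5176 CPM against 752 to 1937 CPM, of which Prss29, a protease of the glands, was at 2458 and 2137 CPM against 385, 2.96 and 11.6 CPM, and the gland gene Cxcl15 was called as lower by DESeq2. This separation rested on Prss28 and Prss29, since without these proteases, chosen after their values were seen, the other 9 markers summed to 1271 and 1197 CPM against 1462, 749 and 895 CPM, with overlapping groups. Proliferation genes summed to 390 to 429 CPM against 445 to 992 CPM, and Top2a, the most abundant, had a log2 fold change of -0.99. The sums overlapped for smooth muscle (9046 to 11455 against 9422 to 14235 CPM, led by Myh11), endothelium (573 to 596 against 469 to 751 CPM, led by Pecam1), leukocytes (383 to 414 against 276 to 571 CPM, led by Csf1r), decidual cells (64.8 to 89.5 against 48.9 to 79.8 CPM, led by Alpl) and ovary, oviduct, adipose tissue and vagina (81.1 to 186 against 52.0 to 273 CPM, led by Ovgp1, with Adipoq at 0 in 4 of 5 libraries). Markers of uterine muscle, stroma and epithelium were thus present in every library, as the label uterus says. The part of these cell types and hormone responses in the levels of the IGF family was not tested.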

How the data were processed

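Uterine RNA of 2 aged-SP and 3 young-SP females was analysed, grouped by sample title. According to the labels and the study's methods, libraries were made with a NEBNext Ultra kit, which was taken here as non-directional. The submitters' processing notes name HISAT2 2.1.0, HTSeq 0.6.0 and Bowtie2 2.2.3. The genome build is not given in the sources used here, and 26998 of 28666 listed genes have the position of GENCODE M21 on GRCm38. The authors deposited the raw count of each gene and library, and FPKM values that equal counts divided by gene length and total count (largest relative deviation 1.93e-07), so that FPKM was used for lengths and as an alternative for levels. The deposited table also holds the authors' mean signal over libraries, log2 fold changes, p-values and adjusted p-values from DESeq2, which were not used. The number of columns of per-sample values left unused was 0, and rows without a gene identifier numbered 0.

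Genes were kept by filterByExpr, scaled by TMM and compared with glmQLFit and glmQLFTest of edgeR 4.0.16 in R 4.3.3, two-sided, with Benjamini-Hochberg adjustment. The SE and the 95% interval of a log2 fold change follow from the quasi-likelihood statistic and its degrees of freedom. The principal components used log2 CPM with a prior count of 2. Alternatives used DESeq2 1.42.0 and limma 3.58.1, and the scripts were tested on simulated data. The intervals of fold changes include the spread between libraries, whereas counting errors and the floor of 3 counts cover counting error only, since no molecular identifiers were used. The members and the lists were chosen with earlier results of these data known. Named genes were the 10 members, in each pathway list those called by edgeR or DESeq2 and the 3 with the smallest p, in each marker list those called and the most abundant gene, genes that overlap a member, and the 5 genes nearest to the member with the smallest p. Some genes that this rule names are not reported here. Of the listed genes, 5 were not in the table. The young-SP library that the study left out as an outlier was not analysed here. Promoter sequences are from RefSeq on GRCm38.p6, in which all 10 members were matched by symbol. Figures were drawn with matplotlib 3.10.9 in Python 3.11.15.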

Additional observations from a re-analysis of the deposited data

How the results depend on the processing

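With 2 against 3 libraries, a member had to differ by far more than its spread to pass after adjustment over all tested genes. Other scalings (size factors from DESeq2, or total counts without TMM), other tests (limma-voom, and the Wald test of DESeq2), other filters (none, or a minimum of 10 counts per library), the adjusted p alone, a replicate block and the omission of each library were tried. DESeq2 without replicate 1 of the young-SP group, the length of the longest transcript and the count of members at an adjusted p under 0.05 alone were chosen after seeing the data. The number of members called was 0 in each, except for 1 (Igf1) with DESeq2 without replicate 1 of the young-SP group. With an adjusted p under 0.05 alone there were 3 by DESeq2, 1 without a filter, 1 by edgeR without replicate 1 of the young-SP group and 3 by DESeq2 without it. Of the IGF pathway genes DESeq2 called 4, and of the marker genes 7, where it called 3.6% of all genes that it could adjust. Without replicate 1 of the young-SP group, edgeR called 2 pathway genes and DESeq2 6, where they called 3.45% and 5.84% of all genes. EdgeR without a filter called 2 pathway genes, where 1.0% of all genes had an adjusted p under 0.05. Igf1 passed at an adjusted p under 0.05 with DESeq2 (-0.98, and -1.09 without replicate 1 of the young-SP group). Igf1r passed with DESeq2 (0.77 and 0.76), without a filter (0.77) and without that library in edgeR (0.75), and Igfbp4 with DESeq2 (-0.78 and -0.85). The cause of these differences was not tested. No log2 fold change of a tested member turned its direction under any alternative run. Leaving out each library in turn gave -1.10 to -0.75 for Igf1, 0.68 to 0.85 for Igf1r, 0.23 to 0.33 for Igf2r, 0.26 to 0.72 for Igfbp2, 0.10 to 1.78 for Igfbp3, -1.02 to -0.56 for Igfbp4, -0.52 to -0.0034 for Igfbp5 and -0.59 to -0.04 for Igfbp6, 0 to 2 called pathway genes and 0 to 1 members at an adjusted p under 0.05. Where 1 aged-SP library was left, it was assumed to vary like the young-SP libraries. The groups share replicate numbers 1 and 4, and the deviations of same-numbered libraries correlated at 0.152 and 0.136, which with 2 pairs does not show that the numbers pair them. With the replicate block 0 members and 0 pathway genes were called, and the log2 fold change was -0.75 for Igf1 and 0.76 for Igf1r, with adjusted p of 0.169 and 0.171 in edgeR. Shares over all tested genes are given only for edgeR, DESeq2, edgeR without a filter and both tools without replicate 1 of the young-SP group. A count of 0 under the other alternatives is therefore not a result about the members or pathway genes. With the length of the longest transcript the levels were 83.5 CPM per kilobase for Igf1, 8.23 for Igf1r and 2.87 for Igfbp2, and the ligands summed to 53.0 in the aged-SP and 103.9 in the young-SP group, since that length is shorter than that of the merged exons.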
